A study of Mus musculus with 6 samples.

Results

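The genes described here are 10 cytokine genes of the mouse: Il23a, Il12a, Ebi3, Il6, Il11, Lif, Csf1, Csf2, Csf3 and Tslp. They were taken by symbol, through their Entrez numbers, from the 36528 genes listed for each library. The list was drawn up with the values of these same libraries known, so the values below describe the 10 genes and no p-value is given for them. RNA with a poly(A) tail was measured in cells sorted from the skin of Lgr5-DTReGFP mice, in which the diphtheria toxin (DT) receptor and eGFP are carried at the Lgr5 locus, so that DT kills cells that express Lgr5. Sorting kept cells with CD49f and CD34 on their surface and without GFP, a population of hair follicle stem cells in the bulge. There were 3 libraries from mice given saline and 3 from mice given DT, all of this genotype. Age, sex, dose and the time after DT are not stated in the labels, and no mice without the receptor were given DT. The labels do not say that the libraries of a group came from separate animals, so the spread between them may be technical.

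These cytokines carry signals between epithelium and immune cells. IL-23 is a pair of the p19 chain (Il23a) and the p40 chain (Il12b) and maintains T cells that make IL-17 and IL-22. Il12a encodes the p35 chain of IL-12 and Ebi3 a chain shared by IL-27 and IL-35. IL-6, IL-11 and LIF signal through the shared receptor chain gp130 (Il6st) to STAT3. CSF1, CSF2 and CSF3 drive the growth and function of macrophages, of granulocytes and macrophages, and of neutrophils. TSLP is released by keratinocytes and acts on dendritic cells, lymphocytes and sensory neurons.

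The promoters of 3 of these genes are shown because their levels went with DT to different extents (Csf1 and Lif were higher, Il6 was hardly read). Each stretch is the 250 bases before the RefSeq start of the gene in GRCm38.p6, 5′ to 3′ on the gene's strand, with matches to the NF-kappaB consensus or to the AP-1 motif TGANTCA in capitals.
Csf1, chr3:107760470-107760719, minus strand: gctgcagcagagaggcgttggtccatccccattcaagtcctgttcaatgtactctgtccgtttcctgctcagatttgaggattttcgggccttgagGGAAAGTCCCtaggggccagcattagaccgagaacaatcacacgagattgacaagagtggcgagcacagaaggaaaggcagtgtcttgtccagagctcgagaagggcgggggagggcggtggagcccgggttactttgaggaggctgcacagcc
Lif, chr11:4257318-4257567, plus strand: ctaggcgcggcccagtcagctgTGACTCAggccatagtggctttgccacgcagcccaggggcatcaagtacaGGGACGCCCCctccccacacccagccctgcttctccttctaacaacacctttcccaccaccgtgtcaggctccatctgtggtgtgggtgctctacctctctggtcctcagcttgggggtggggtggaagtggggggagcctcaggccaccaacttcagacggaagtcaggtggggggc
Il6, chr5:30012864-30013113, plus strand: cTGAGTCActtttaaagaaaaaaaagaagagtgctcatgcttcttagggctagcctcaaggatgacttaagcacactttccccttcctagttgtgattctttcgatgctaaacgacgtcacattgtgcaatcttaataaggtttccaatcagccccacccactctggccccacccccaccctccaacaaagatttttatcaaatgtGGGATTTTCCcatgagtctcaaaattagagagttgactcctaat

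From the RefSeq promoter table, 9 entries for 7 of the cytokines were searched (Csf1, Csf2, Ebi3, Il11, Il12a, Il6 and Lif). Il23a and Csf3 had no entry there. Tslp was not searched, because entries on chromosome 18 were left out for the cytokines but not for the share over all entries. Searched on both strands, the NF-kappaB consensus was found in Csf1, Ebi3, Il6 and Lif, or 4 of the 9 entries. It was found in 7.25% of all 32851 promoter entries cut to the same length. The AP-1 motif was found in Il6, Lif and Il11, or 3 of the 9, and in 6.75% of all entries. The STAT motif TTCNNNGAA was found in 0 of the 9 and in 7.02% of all entries. The capitals of one motif did not overlap those of the other in the printed stretches. Csf2 and Il12a held none of the 3 motifs in this window. All the printed stretches hold an NF-kappaB match, while Csf2, which was also higher in DT, is not printed. These are matches of letters only.

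The libraries held 15300755 to 25558859 reads in genes, with DT library 2 the shallowest, and 17405 to 20994 genes with at least 1 read. Lgr5, the targeted gene, was at 24.05 ± 7.20 CPM (reads scaled to the size of the library) in saline against 7.11 ± 0.143 CPM in DT (SD, n = 3). The summed level of 8 genes of bulge and basal keratinocytes, Cd34, Krt15 and Krt5 among them, was 43669 to 57858 CPM in saline and 46269 to 66929 CPM in DT, most of it Krt15. Of the 8, Krt14 rose (3.43-fold), the bulge regulators Lhx2 (0.469-fold), Sox9 (0.613-fold) and Nfatc1 (0.619-fold) fell, and Cd34, Itga6, Krt15 and Krt5 did not pass the test. Of the lists for other cells, that of Langerhans and dendritic cells had the highest sum, with 5 genes at 227 to 326 CPM in saline and 201 to 238 CPM in DT. Of these, Cd74 (152 ± 20.6 CPM in saline against 98.0 ± 9.47 CPM in DT) and H2-Ab1 fell, and Epcam, which keratinocytes can also express, was at 85.3 ± 30.5 and 103 ± 9.98 CPM. Cd207 was at 3.53 ± 0.839 and 1.61 ± 0.851 CPM and did not pass the test. Itgax went the other way, under the filter, with 0, 2 and 5 reads in saline and 12, 19 and 7 in DT. Sums were lower for 3 genes of all leukocytes (10.5 to 27.8 CPM in saline and 11.6 to 15.4 CPM in DT, where Laptm5 fell). The 4 T cell genes summed to 17.1 to 48.7 CPM in saline and 9.58 to 16.5 CPM in DT, and 7 myeloid genes to 8.33 to 16.1 CPM and 10.3 to 11.9 CPM. Of the mast cell genes Cpa3, Mcpt4 and Tpsb2 had 0 reads in every library, as had the neutrophil gene Ly6g, and Cma1 had 0 reads in saline and 3, 2 and 4 in DT. Among myeloid genes Itgam averaged 0.344 ± 0.301 CPM in saline against 4.03 ± 2.17 CPM in DT, while Adgre1 was at 1.82 ± 1.13 and 0.0623 ± 0.06002 CPM. The actin gene Acta2 averaged 0.867 ± 0.264 CPM in saline against 71.0 ± 42.1 CPM in DT, with the other pericyte and muscle genes low in both groups: Rgs5 at 0 reads in every library, Des at 0 reads in all but DT library 2 and Myh11 at 0.318 ± 0.550 and 0.257 ± 0.185 CPM. The 6 fibroblast genes summed to 23.5 to 41.3 CPM in saline and 9.47 to 16.9 CPM in DT. Sums of 4 endothelial genes were 4.35 to 28.0 CPM in saline and 8.72 to 10.5 CPM in DT. Those of 3 melanocyte genes were 12.4 to 22.5 CPM in saline and 7.18 to 9.70 CPM in DT. Only the endothelial sums overlapped between the groups. In these lists Col1a2 (0.428-fold), Vwf (0.241-fold) and Dct (0.138-fold) fell past the test and none rose. The part of Itgam-positive, Itgax-positive or Acta2-positive cells in the values below was not tested. In sorted bulk RNA, fewer cells of a type and less RNA per cell cannot be told apart.

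Il23a, Csf2, Lif, Csf1 and Tslp were higher in every DT library than in any saline library, with fitted differences from 2.39-fold for Tslp to 506-fold for Il23a. Csf3 and Il11 differed by less, Ebi3 was read at a trace, Il6 in 1 library only and Il12a in none. Of the 10 genes, 7 passed the filter on low counts and 3 (Il12a, Ebi3 and Il6) did not. Of those 7, 5 were past an adjusted p of 0.05 in edgeR's quasi-likelihood test, all higher in DT, where 17.2% of all genes tested were called higher (29.0% were called in either direction). The groups did not overlap for the 7 genes or for Ebi3, with DT above saline, as for 25.4% of all genes tested (45.9% in either direction). Because the genes were chosen on this contrast, these counts support nothing beyond the description.

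**Figure D1:**
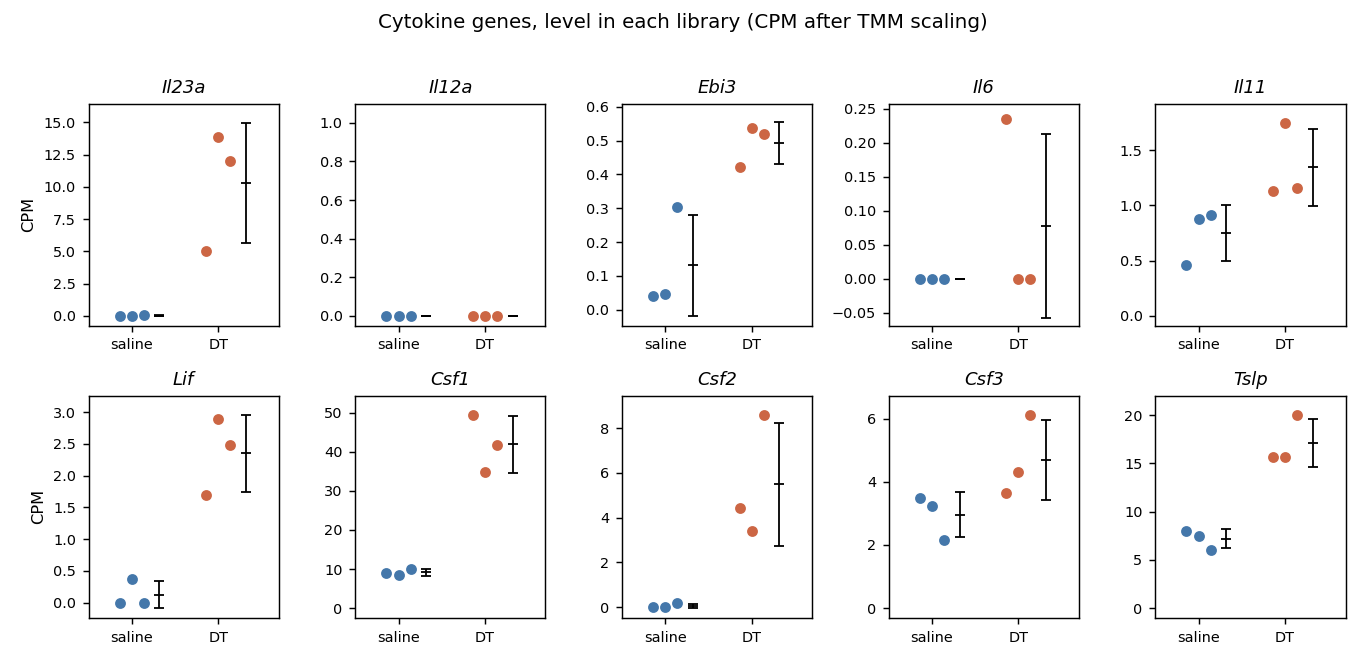
Level of each of the 10 cytokine genes in each library in CPM on a linear axis, with its own scale per gene. Points are single libraries in the order 1 to 3, and the bar beside them is the group mean ± SD (n = 3); Il23a and Csf2 lie at or near 0 in saline and at 3.42 CPM or more in DT.

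Il23a (Entrez 83430, chromosome 10 from 128296140 to 128298084 in GRCm38), the chain particular to IL-23, had 0, 0 and 1 reads in saline libraries 1 to 3. It had 107, 207 and 300 reads in DT libraries 1 to 3, or 5.02, 13.9 and 12.0 CPM. The gene was all but unread in saline and plainly read in every DT library, with DT library 1 the lowest. Reads summed over a group and scaled for depth stood in a ratio of 689 between DT and saline, with a 95% interval from 123 to 27269 that covers counting error only. The fitted log2 fold change was 8.98 (SE 0.75). Without saline library 3, which held the single saline read, it was 10.78, a value set by the prior count of the fit. DT library 1 was also the DT library with the least Acta2, at 23.1, 88.2 and 102 CPM in DT libraries 1 to 3. Itgam, which also rose, was lowest in DT library 3, at 3.94, 6.24 and 1.92 CPM in DT libraries 1 to 3. A link of Il23a to either gene was not tested.

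The chains that pair with Il23a or Ebi3 were read at a trace or not at all. Il12b, the p40 chain without which IL-23 is not formed, had 0 reads in all 6 libraries, which allows up to 0.0436 CPM over the saline and 0.0490 CPM over the DT libraries. Il12a had 0 reads in all 6 as well, with the same limits. Ebi3 had 1, 1 and 7 reads in saline and 9, 8 and 13 in DT, or 0.131 ± 0.150 and 0.493 ± 0.0619 CPM. The ratio of its summed reads was 3.74 (95% interval 1.73 to 8.96, counting error only), on few reads. Its gene model overlaps that of Zfp119b, which had 282 to 539 reads per library. Il27, the p28 chain that pairs with Ebi3, had 1, 0 and 0 reads in saline and 3, 2 and 4 in DT. The transcripts of the p40, p35 and p28 chains were thus at or near 0 where Il23a was at 10.3 ± 4.67 CPM.

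Among the ligands of gp130, Il6 (chromosome 5 from 30013114 to 30019975) had 5 reads in DT library 1 and 0 in each of the other 5 libraries. It was therefore not detectable in DT libraries 2 and 3 at this depth. Lif (chromosome 11 from 4257568 to 4272514), a ligand of the LIF receptor and gp130, had 0, 8 and 0 reads in saline and 36, 43 and 62 in DT. This is 0, 0.370 and 0 CPM against 1.69, 2.89 and 2.47 CPM, so the lowest DT library lay well above the highest saline library. The fitted log2 fold change of Lif was 4.24 (SE 1.0), with 3.63 without saline library 1 and 8.67 without saline library 2, the only saline library with reads. Il11 (chromosome 7 from 4772373 to 4782907), which signals through its own alpha chain and gp130, was at 0.456, 0.879 and 0.912 CPM in saline against 1.13, 1.75 and 1.16 CPM in DT. The Il11 groups did not overlap, but the gap between them was narrow, and the log2 fold change was 0.83 (SE 0.52). Tmem190, which overlaps the gene model of Il11, had 2 to 12 reads per library.

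The colony-stimulating factors differed from each other. Csf1 (Entrez 12977, chromosome 3 from 107741048 to 107760469), the macrophage factor, was the most read of the 10 genes in DT. It was at 8.91, 8.47 and 10.1 CPM in saline against 49.3, 34.8 and 41.6 CPM in DT. The saline libraries were close to each other and the DT libraries were all far above them, with a log2 fold change of 2.20 (SE 0.19), or 4.58-fold. Csf2 (Entrez 12981, chromosome 11 from 54247270 to 54249899), which encodes GM-CSF, had 0, 0 and 4 reads in saline and 95, 51 and 215 in DT. This is 0, 0 and 0.174 CPM against 4.45, 3.42 and 8.58 CPM. Csf2 was close to absent in saline, and DT library 3 was the highest. Its summed reads stood in a ratio of 101 (95% interval 39.2 to 374, counting error only). The fitted log2 fold change of Csf2 was 6.43 (SE 0.83), or 5.85 without saline library 1 and 9.88 without saline library 3, the only saline library with reads.

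Csf3 (chromosome 11 from 98700183 to 98703631), the granulocyte factor, was at 3.48, 3.24 and 2.17 CPM in saline against 3.66, 4.30 and 6.11 CPM in DT. The groups met almost end to end, with saline library 1 and DT library 1 nearly level. The log2 fold change of Csf3 was 0.66 (SE 0.33), and within the 4 libraries of the larger number series of the submitters' sample identifiers it was 0.24 (SE 0.44). Csf3 and Csf2 share a chromosome but not their pattern: Csf3 was read in every saline library, Csf2 in saline library 3 only, and the order of the DT libraries was 3, 2, 1 for Csf3 and 3, 1, 2 for Csf2.

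Tslp (Entrez 53603, chromosome 18 from 32815383 to 32819799) was read at similar levels in all libraries of a group. It was at 7.96, 7.49 and 6.08 CPM in saline against 15.7, 15.7 and 20.0 CPM in DT. The gap between the groups was larger than the spread within either. The log2 fold change was 1.26 (SE 0.22), or 2.39-fold, and it was 1.02 (SE 0.30) within the larger identifier series.

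Compared per length of transcript, in the RPKM that the authors deposited, the order of the genes changed between the groups. In saline the order was Tslp (5.06 ± 0.681 RPKM), Csf1 (1.94 ± 0.181), Csf3 (0.692 ± 0.162), Il11 (0.349 ± 0.119) and Ebi3 (0.105 ± 0.12), with Csf2, Lif and Il23a at 0.0412, 0.0174 and 0.01004 RPKM on average. Saline libraries of neighbours in this order were apart down to Il11, and Il11 and Ebi3 overlapped. In DT it was Tslp (12.1 ± 1.82 RPKM), Csf1 (8.89 ± 1.37), Il23a (7.18 ± 3.35), Csf2 (3.91 ± 1.96), Csf3 (1.1 ± 0.307), Il11 (0.629 ± 0.174), Ebi3 (0.395 ± 0.0568) and Lif (0.335 ± 0.0926). DT libraries of Csf1 and Il23a overlapped, as did those of Il23a and Csf2 and those of Ebi3 and Lif. Il23a thus stood near the bottom of the order in saline and not apart from Csf1 in DT.

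The summed RPKM of the 10 genes was 8.55, 8.31 and 7.77 in saline libraries 1 to 3 and 29.7, 33.8 and 40.3 in DT libraries 1 to 3. Tslp made up 65.6%, 63.4% and 55.3% of this sum in saline and 36.5%, 33.4% and 35.2% in DT. The share of Il23a was at most 0.387% in saline and was 11.4%, 29.0% and 20.7% in DT. Csf1 took 21.5% to 27.6% in saline and 22.1% to 34.5% in DT, so its share of the sum overlapped between the groups while its level did not. Within DT the makeup varied: the shares of Csf1 and Tslp were highest in DT library 1, that of Il23a in DT library 2 and that of Csf2 in DT library 3.

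**Figure D2:**
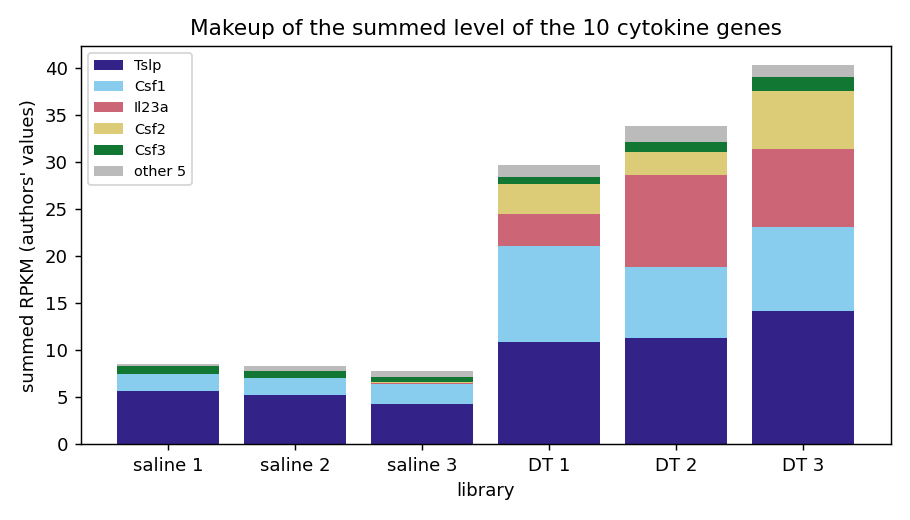
Summed RPKM of the 10 cytokine genes in each library (bars from 0, linear axis), split by gene, with the 5 genes of low level joined in grey. The saline bars stand at 7.77 to 8.55 RPKM and consist mostly of Tslp and Csf1, and the DT bars at 29.7 to 40.3 RPKM with added shares of Il23a and Csf2.

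The other ligands and subunits of these families were compared in a list of 14 genes, of which 8 passed the filter. None of the 8 passed the test (edgeR quasi-likelihood, adjusted over all genes tested), beside 29.0% of all genes. At an unadjusted p under 0.05 there was 1, DESeq2 called 1, and limma-voom and limma on RPKM called 0. The median log2 fold change of the 8 was 0.11, against -0.01 over all genes tested. Il34, the second ligand of the CSF1 receptor and a product of keratinocytes, was at 105, 154 and 196 CPM in saline against 144, 75.7 and 142 CPM in DT (log2 change of -0.33, SE 0.27, adjusted p = 0.393). The groups of Il34 overlapped. Per length Il34 stood far above Csf1, and the ratio of Csf1 to Il34 in RPKM was 0.0427, 0.0277 and 0.0259 in saline and 0.172, 0.231 and 0.147 in DT. Il34 was the more abundant transcript per length in every library, and the ratio was higher in each DT library than in any saline library.

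Among the gp130 ligands of that list, Cntf averaged 0.512 ± 0.348 CPM in saline against 2.17 ± 1.46 CPM in DT (log2 2.06, SE 0.75, adjusted p = 0.0629), and the groups overlapped. Clcf1 (0.16, adjusted p = 0.795) and Ctf1 (-0.49, adjusted p = 0.477) did not pass. Osm had 5 reads in saline library 3 and 0 in the other libraries. Among growth factors of blood cells, Kitl averaged 45.2 ± 15.3 CPM in saline against 66.7 ± 20.7 CPM in DT (0.56, adjusted p = 0.16). Flt3l (0.58, adjusted p = 0.219) and Il7 (0.06, adjusted p = 0.873) did not pass either. Il31, a cytokine of itch, had 0 reads in saline and 4, 5 and 12 in DT. Against a floor of 3 reads over the saline libraries it was 7.86-fold higher, with the counting error in DT left out. Il3 had 0 reads in all 6 libraries, and Il5 had 1 read in saline and 2 in DT.

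The receptor chains of these ligands were compared in a second list. Of 17 receptor and transducer genes 10 passed the filter, of which Il23r and Osmr rose and Il12rb2 fell. This is 3 of 10, a share near the 29.0% of all genes tested, and the median log2 fold change of the 10 was -0.21. DESeq2, limma-voom and limma on RPKM called 3 each. The plot of receptor levels by library shows the genes named here.

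**Figure D3:**
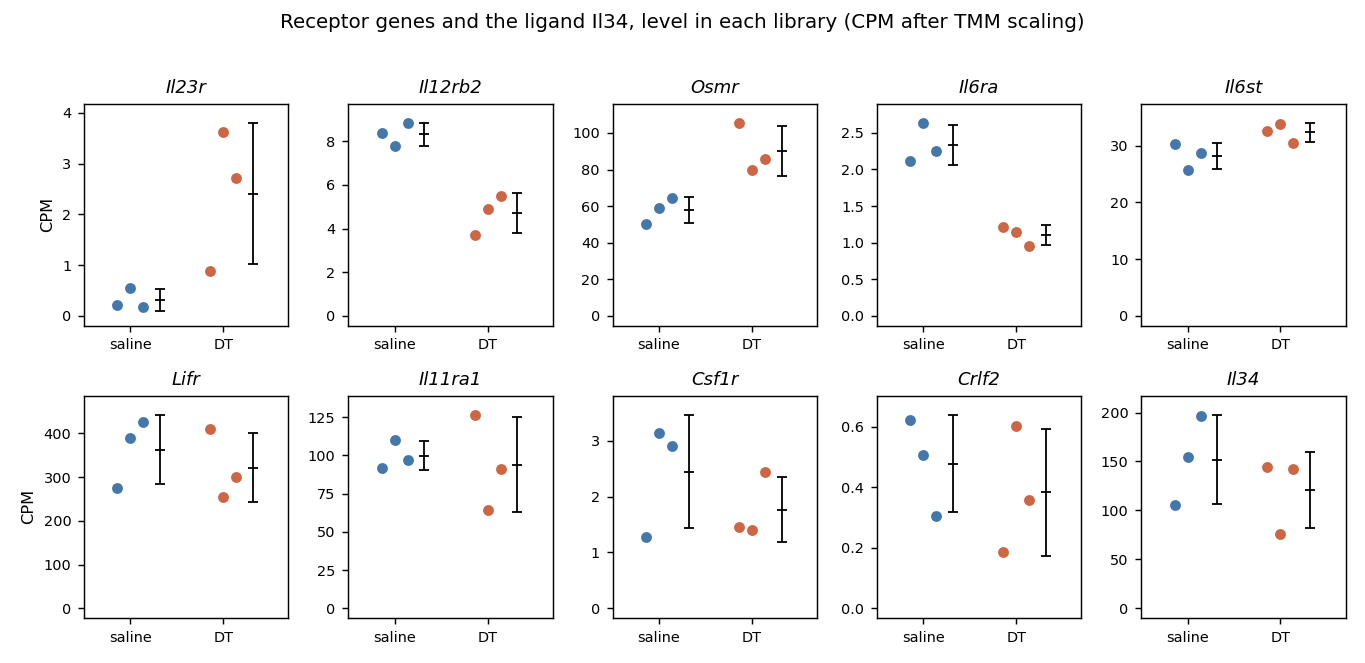
Level of 9 receptor genes and of the ligand Il34 in each library in CPM on a linear axis, with its own scale per gene. Points are single libraries in the order 1 to 3, and the bar beside them is the group mean ± SD (n = 3); Il23r and Osmr lie higher in DT, Il12rb2 lower, and Lifr, Il11ra1, Csf1r, Crlf2 and Il34 overlap between the groups.

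Il23r (chromosome 6 from 67422932 to 67491855), the chain of the IL-23 receptor that binds p19, had 5, 12 and 4 reads in saline and 19, 54 and 68 in DT. This is 0.207, 0.555 and 0.174 CPM against 0.891, 3.63 and 2.71 CPM (log2 change of 2.93, SE 0.70, adjusted p = 0.0121). DT library 1 was again the lowest of the DT libraries. The call did not hold without DT library 2 (adjusted p = 0.0649), without DT library 3 (0.052) or within the larger identifier series (0.123). Il23r is known from T cells, among other cells. Of 4 T cell genes 3 fell past the test, where 11.9% of all genes tested were called lower. Cd3e averaged 14.01 ± 6.25 CPM for saline against 5.84 ± 1.76 CPM for DT. Of the 4 myeloid genes tested 1 rose (Itgam) and 1 fell (Adgre1), where 17.2% of all genes tested were called higher. Which cells held the Il23r reads was not tested. Il12rb1, the chain that Il23r needs, had 4, 0 and 1 reads in saline and 2, 0 and 3 in DT.

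Il12rb2 (chromosome 6 from 67285986 to 67376293), the neighbour of Il23r on the chromosome and a chain of the IL-12 receptor, was at 8.37, 7.77 and 8.81 CPM in saline against 3.70, 4.90 and 5.51 CPM in DT. The groups were apart, and the log2 fold change was -0.82 (SE 0.25, adjusted p = 0.0349). The call was lost when any 1 of the 6 libraries was left out (adjusted p = 0.0542 to 0.0873), with a log2 fold change of -0.98 to -0.68. The gene model of Il12rb2 overlaps that of Serbp1, which had 5143 to 7011 reads per library. Il27ra had 21 reads in saline and 7 in DT and was not tested.

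Osmr (chromosome 15 from 6813568 to 6874968) encodes a chain of the receptors for oncostatin M, where it pairs with gp130, and for IL-31. It was at 50.1, 59.1 and 64.5 CPM in saline against 106, 79.5 and 85.5 CPM in DT. All DT libraries were above all saline libraries (log2 fold change 0.64, SE 0.16, adjusted p = 0.0137), and the call was lost within the larger identifier series (0.76, adjusted p = 0.0666). Lifr, the receptor chain that binds LIF, averaged 363 ± 78.9 CPM in saline against 322 ± 79.2 CPM in DT (-0.17, SE 0.21, adjusted p = 0.555). Il6st, which encodes gp130, was at 28.2 ± 2.32 and 32.3 ± 1.69 CPM (0.20, SE 0.15, adjusted p = 0.367). Il11ra1 was at 99.7 ± 9.55 and 94.0 ± 31.1 CPM (-0.08, SE 0.22, adjusted p = 0.796), where reads shared with a near-identical copy would have been left out of the count. Il6ra was at 2.11, 2.64 and 2.26 CPM in saline against 1.22, 1.14 and 0.958 CPM in DT, groups that did not overlap (-1.08, SE 0.40), but it did not pass (adjusted p = 0.0671, and 0.0493 when scaled by library size only).

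The receptors of the colony-stimulating factors and of TSLP were low. Csf1r, a gene of macrophages and Langerhans cells, averaged 2.45 ± 1.01 CPM in saline against 1.77 ± 0.580 CPM in DT (log2 change of -0.46, adjusted p = 0.48). Csf2ra was at 1.19 ± 0.576 and 1.02 ± 0.434 CPM (-0.24, adjusted p = 0.781). Csf2rb had 55 reads in saline, 41 of them in library 3, and 29 in DT. It is close in sequence to Csf2rb2, so both counts are uncertain. Csf3r had 3 reads in saline library 3 and 0 elsewhere. Of the TSLP receptor chains, Crlf2 was at 0.478 ± 0.161 and 0.384 ± 0.209 CPM (-0.35, adjusted p = 0.728), and Il7r had 48 reads in saline and 10 in DT.

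Genes that respond to the IL-6 family through STAT3 gave no call. Of 12 genes 8 passed the filter and 0 passed the test (2 at an unadjusted p under 0.05, 1 by DESeq2, 0 by limma-voom and 0 by limma on RPKM), beside 29.0% of all genes. Their median log2 fold change was -0.31. Socs3, the feedback inhibitor that STAT3 induces, was at 23.2, 13.8 and 16.1 CPM in saline against 19.3, 10.2 and 7.46 CPM in DT, with overlap between the groups (-0.52, SE 0.34, adjusted p = 0.276). Stat3 itself was at 165 ± 22.7 and 169 ± 34.2 CPM (0.03, SE 0.17, adjusted p = 0.905). Junb (0.79, adjusted p = 0.121), Bcl3 (1.54, 0.227), Cebpb (-0.72, 0.245) and the secreted glycoprotein Lrg1 (-1.40, 0.0798) lay on both sides of 0. Timp1, an inhibitor of matrix proteases, was under the filter, with 0, 0 and 2 reads in saline and 5, 27 and 47 in DT (ratio of summed reads 44.3, 95% interval 11.9 to 373, counting error only). Lcn2 had 0 reads in saline and 9, 1 and 6 in DT, 5.99-fold higher against the floor, with the counting error in DT left out.

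Of the genes downstream of IL-23, the cytokines Il17a, Il17f and Il22 and the targets S100a8, S100a9 and Defb4 were read at 0 to 8 reads per library. Of 13 genes of the IL-17 and IL-22 axis, 12 are listed in the files (Il17c was not analysed here) and 6 passed the filter. Of these 6, 0 passed the test (1 at an unadjusted p under 0.05, 1 by DESeq2, 0 by limma-voom and 0 by limma on RPKM), beside 29.0% of all genes, with a median log2 fold change of -0.14. Il17a and Il22 had 0 reads in all 6 libraries. Il17f had 0 reads in saline and 7, 1 and 8 in DT, 5.99-fold higher against the floor, with the counting error in DT left out. The receptors were read without a call: Il17rc was at 44.0 ± 12.3 and 41.4 ± 8.43 CPM (-0.09, adjusted p = 0.791), Il17ra at 7.66 ± 1.77 and 5.88 ± 2.34 CPM (-0.37, adjusted p = 0.424), and Il22ra1 at 10.1 ± 4.49 and 15.9 ± 2.37 CPM (0.65, adjusted p = 0.167). Il10rb was at 21.2 ± 0.784 and 32.1 ± 10.9 CPM (0.60, adjusted p = 0.0755). The groups of Il22ra1 and Il10rb did not overlap, with DT above saline, as for 25.4% of all genes tested. Nfkbiz, a cofactor of NF-kappaB in the IL-17 response, was at 14.7 ± 4.55 and 10.1 ± 1.74 CPM (-0.54, adjusted p = 0.161). S100a8 and S100a9, which keratinocytes make in response to IL-17, had at most 7 and 2 reads in any library.

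**Figure D4:**
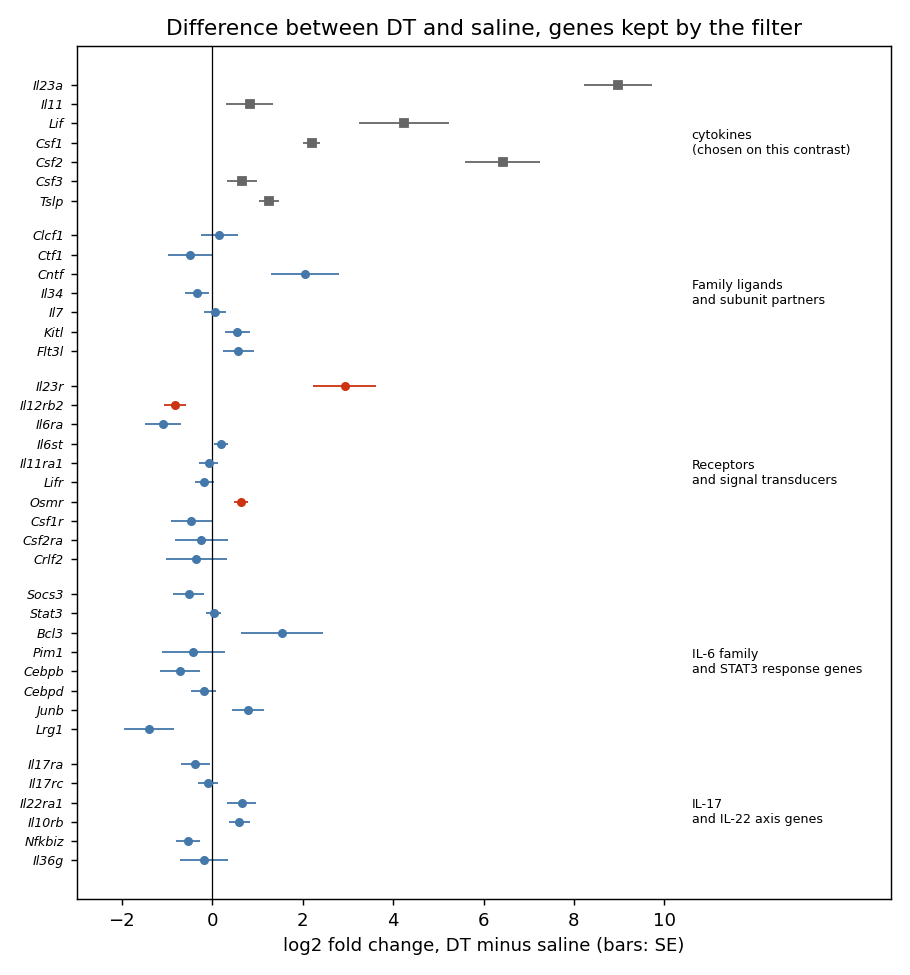
Log2 fold change of DT minus saline, with its SE as bars, for genes kept by the filter. Grey squares are the 7 cytokines chosen on this contrast, red circles list genes past the test and blue circles list genes not past it. Il23a, Csf2 and Lif lie farthest to the right. The receptors and response genes lie on both sides of 0, with Il23r the farthest from it.

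Genes with a profile close to that of a cytokine were sought by the Euclidean distance between the log2 CPM of the 6 libraries, each taken minus the saline mean of its gene. For Csf1 the nearest were Vsir (distance 0.27), an immune checkpoint receptor, Psrc1 (0.36), a microtubule protein, and Klk10 (0.37), a kallikrein protease. For Tslp they were Syngr2 (0.23), a vesicle protein, Gm30968 (0.29) and Blnk (0.31), an adaptor of B cell signalling. For Il23a they were Gm34712 (0.46), Serpinb1b (0.56), a protease inhibitor, and Gm13348 (0.74). All 3 neighbours of Il23a had a mean of 0 CPM in saline, and DT means of 8.98, 10.3 and 7.36 CPM, and like Il23a they were lowest in DT library 1. Likeness over 6 libraries in 2 groups is set mainly by the difference between the groups. The neighbours were picked for nearness over these same libraries, so their low saline level and order within DT follow from the choice.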

How the data were processed

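Reads were aligned with GSNAP to GRCm38, per the submitters' processing notes. Version, annotation and strand setting were not given in the sources used here. The counts that the authors deposited are reads aligning uniquely to a gene model, per the file headers, so near-identical genes are under-counted. The RPKM that the authors deposited carries a size-factor adjustment, per the file headers.

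Symbols and coordinates came from RefSeq for GRCm38.p6 (31049 of 36528 identifiers matched), and promoters from its table. The main test was the robust quasi-likelihood test of edgeR 4.0.16 (R 4.3.3) between DT and saline after TMM scaling. It ran on the 15132 genes kept by filterByExpr (minimum count 10, minimum total 15), with Benjamini-Hochberg adjustment over all of them and a threshold of 0.05. The test was checked on simulated counts. CPM is after TMM scaling, the error is the SD over 3 libraries, and intervals are exact (Clopper-Pearson, 95%). A count of 0 allows up to 3 reads.

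The cytokines, the lists and the rule for named genes (the 10 cytokines, list genes past the test, their receptors, and the 3 nearest profiles of the 3 cytokines highest in DT) were chosen with earlier results of these data known. The values of 1 list gene, which is in the counts of its list, are not reported here. Genes named beyond that rule were chosen after their values were seen. Libraries were numbered in accession order, which pairs nothing. The alternatives were DESeq2 size factors, library size only, other filters, DESeq2 1.42.0, limma-voom (limma 3.58.1), limma on log2(RPKM + 1), the identifier series as a block or the larger series alone, and leaving out each library.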

Additional observations from a re-analysis of the deposited data

How the results depend on the processing

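No paired analysis was possible because the labels give no replicate numbers. Of 105 alternative log2 fold changes of the 7 cytokines tested, 91 moved by less than the spread between libraries and 14 by more, and 0 of the called ones changed sign. Values for Il23a ranged from 2.92 to 10.78, for Lif from 0.39 to 8.67 and for Csf2 from 2.17 to 9.88; the lowest came with limma on log2(RPKM + 1), where the pseudocount shrinks low genes, and the highest without the saline library that held their reads. For the 10 receptor genes tested, the only list genes followed singly, 133 of 149 alternatives kept the direction and the side of the threshold. A call was lost in 11 and gained in 1. The other 4 changed sign, all in genes without a call: Il11ra1 ranged from -0.36 to 0.09 and Csf2ra from -0.52 to 0.17 (positive in 2 fits) with a library left out, and Lifr was at 0.00 in the larger identifier series. The count over all genes, 4395, fell to 1570 in the larger identifier series, which has 2 libraries per group, and ranged from 2581 to 4871 with a library left out. The receptors called, 3 of 10, were 0 in that series (edgeR, 3 at an unadjusted p under 0.05) and 1 to 3 with a library left out. The family ligands, with 0 called, had 2 called without a filter and 1 with DESeq2, and 0 to 2 with a library left out. The IL-6 and STAT3 response genes, with 0 called, had 3 without a filter, 1 with a mean count of at least 10 and 1 with DESeq2, and 0 to 2 with a library left out. The IL-17 and IL-22 axis genes, with 0 called, had 2 without a filter and 1 with DESeq2, and 0 to 1 with a library left out. The cause of these moves was not tested. Depth limits Il6, Ebi3, Il12b, Il17f, Il31 and Csf3r, at 0 to 13 reads per library.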
